A study of Mus musculus with 198 samples.

Results

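R749C and P904L are amino acid exchanges in the catalytic domain of DNMT3A, the enzyme that places methyl groups on unmethylated cytosines. Both were tested as expression constructs in cultured mouse cortical neurons after 12.5 days in vitro. The libraries were chosen by their genotype label, which gave 7 libraries of R749C and 7 of P904L, or 14 of the 90 culture libraries of that age and of the 198 samples of the whole series. They were set against 13 libraries of the WT construct (titles with pYL5), 10 libraries labelled DNMT3a knockout (titles with Cre) and 10 libraries labelled as no virus control. All came from pooled male and female C57BL/6J neurons taken at E14.5, and per the labels cultures were picked for sequencing when mutant and WT samples held equal Dnmt3a mRNA. The labels of the construct libraries name the construct only, so the state of the resident Dnmt3a gene in those cultures, the promoter that drives the construct and the share of transduced cells are not stated. They also do not say which libraries are separate cultures, so the p-values below measure the spread between libraries, which may be technical. A further 2 libraries, whose title and genotype label disagree about knockout and no virus, entered no group.

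DNMT3A methylates CG sites in all tissues, and in neurons it also methylates cytosines outside CG as they mature, most of all those followed by adenine (CA) and to a smaller extent those followed by thymine (CT). The catalytic domain binds the methyl donor and carries out the transfer, and exchanges in it can lower activity without removing the protein. R749C replaces an arginine by a cysteine and P904L a proline by a leucine. DNMT3A variants are the known cause of Tatton-Brown-Rahman syndrome, an overgrowth disorder with intellectual disability. Each value below is the percentage of cytosines called methylated in 1 whole library, from shallow bisulfite sequencing in which unmethylated cytosines are converted and methylated ones are not. How many cytosines stand behind each percentage is not known, and counting error could not be given, and n counts libraries. Libraries whose titles begin with Gabel21 or carry an S022 number (called title formats here) stood apart in the WT construct group. The CA and CT comparisons of R749C and P904L with that group are given with and without them.

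At CA sites the 2 catalytic-domain variants stayed near the knockout. The 7 R749C libraries held 0.412%, 0.441%, 0.451%, 0.476%, 0.537%, 0.716% and 0.768% methylated CA. The 7 P904L libraries held 0.431%, 0.447%, 0.472%, 0.528%, 0.676%, 0.726% and 0.917%. In each variant most libraries lay low and a few stood higher, 2 of 7 in R749C and 3 of 7 in P904L being above the highest knockout library. WT construct libraries ranged from 0.585% to 1.55% with a median of 1.12%, and knockout libraries from 0.407% to 0.626% with a median of 0.491%. No library of either variant was below the lowest knockout library, while 5 of 7 R749C and 4 of 7 P904L libraries lay below the lowest WT construct library.

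**Figure D1:**
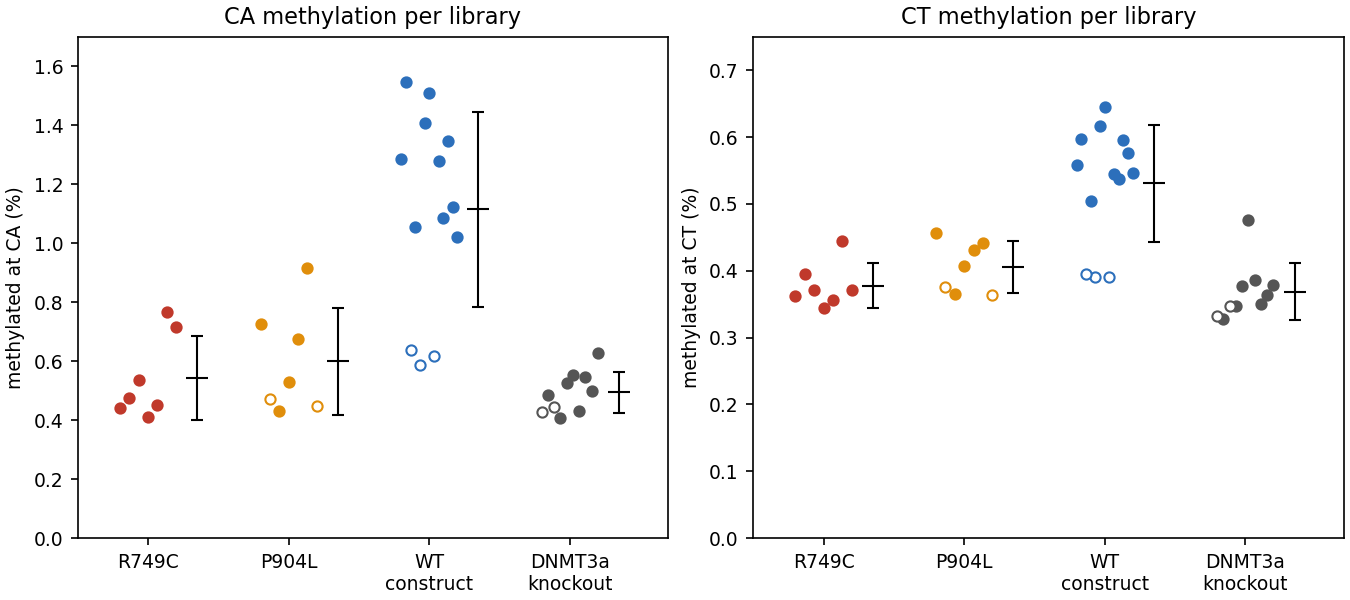
Percentage of methylated cytosines at CA (left) and CT (right) in each library of R749C (n = 7), P904L (n = 7), the WT construct (n = 13) and DNMT3a knockout (n = 10). Points are libraries, the horizontal dash and bars are the mean and SD, and open points are libraries with the title formats Gabel21 or S022; both variants overlap the knockout, and the 3 lowest WT construct libraries are all open points.

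Mean CA methylation was 0.543% ± 0.142 in R749C and 0.599% ± 0.181 in P904L (SD, n = 7 each), against 1.12% ± 0.330 (n = 13) with the WT construct and 0.495% ± 0.0694 (n = 10) in knockout. R749C exceeded knockout by 0.0483 percentage points (SE 0.0580, 95% interval -0.0592 to 0.159), and the exact two-sided permutation test gave an adjusted p of 0.393 over the 18 comparisons of that context. For P904L the excess over knockout was 0.105 points (SE 0.0717, interval -0.0220 to 0.238, adjusted p = 0.132, exact permutation). Neither difference passed the threshold of 0.05, and the intervals still allow a residual gain of up to 0.159 and 0.238 points. Both excesses leaned on single libraries: without R749C replicate 1, the highest of that variant, the difference was 0.0108 points, without R749C replicate 2 it was 0.0196, and without P904L replicate 5 the P904L difference was 0.0519.

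Against the WT construct, CA methylation was lower in both variants. R749C was lower by -0.572 points (SE 0.106, interval -0.847 to -0.293, exact permutation, adjusted p = 0.00183) and P904L by -0.516 points (SE 0.114, interval -0.799 to -0.229, adjusted p = 0.00379). These calls passed with each single library of either group left out, over which R749C ranged from -0.616 to -0.536 points and P904L from -0.569 to -0.480. The P904L call did not pass when medians replaced means (difference -0.596 points, exact permutation, adjusted p = 0.0626), while R749C passed there too. The WT construct group itself fell into separate sets, since 3 libraries held 0.585%, 0.617% and 0.638% CA and the other 10 held 1.02% to 1.55%. The 3 low libraries carry the title formats Gabel21 (1 library) and S022 (2 libraries). The code in each of their titles (pYL5-5_7A, 7B and 7C) recurs in a library of another title format, with 1.55%, 1.28% and 1.41% CA. Whether libraries that share such a title code come from 1 culture is not stated.

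Since the formats Gabel21 and S022 moved with the level in the WT construct group, the comparison was repeated within title formats. The other formats were sorted by how the title is written, and what they mark is not stated. Libraries of 1 format still differed. P904L libraries titled with Gabel_p, a digit and a closing S number ranged from 0.528% to 0.917% CA. R749C libraries carry 4 title formats, none of them Gabel21 or S022. P904L has 1 library in each of the 2, with 0.447% and 0.472% CA. Within formats R749C was below the WT construct in 4 of 4, by -1.12 to -0.569 points, and P904L in 5 of 5, by -0.720 to -0.139 points. These counts rest on few libraries. The Gabel_p titles hold 3 of each variant and 4 of the WT construct, and every other format holds 1 or 2 of a group. Permuting within formats gave R749C -0.702 points (adjusted p = 0.00571, exact permutation) and P904L -0.427 points (adjusted p = 0.00429). Against knockout, R749C was higher in 2 of 4 formats, with differences from -0.0784 to 0.242 points. P904L was higher than knockout in 4 of 5 formats, from -0.123 to 0.200 points. In Gabel21, with 1 library of each group, that excess was 0.00261 points. With both formats left out, a choice made after the values had been seen, R749C minus the WT construct was -0.723 points (adjusted p = 0.000463, exact permutation) and P904L minus the WT construct -0.610 points (adjusted p = 0.000856). With the formats left out of the WT construct group alone, all 7 libraries of each variant lay below the lowest library of that group, at 1.02% for CA. This follows from the choice, since the libraries left out were the only ones of that group to overlap the variants. With the formats left out of all groups, P904L minus knockout was 0.146 points (exact permutation, adjusted p = 0.0759) and R749C minus knockout 0.0338 points (adjusted p = 0.559).

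CT methylation is a second, weaker substrate of the same enzyme, and both variants gave the same picture there. The R749C libraries held 0.344%, 0.357%, 0.362%, 0.371%, 0.371%, 0.395% and 0.445% methylated CT. The P904L libraries held 0.363%, 0.365%, 0.375%, 0.406%, 0.430%, 0.441% and 0.457%. No library of either variant exceeded the highest knockout library, at 0.475%, and 5 of 7 R749C and 3 of 7 P904L libraries lay below the lowest WT construct library. The first count rests on knockout replicate 10: without it the highest knockout library held 0.386%, and 2 of 7 R749C and 4 of 7 P904L libraries were above it. The WT construct ranged from 0.390% to 0.645% with a median of 0.546%, and knockout from 0.328% to 0.475% with a median of 0.357%. As at CA, the 3 lowest WT construct libraries were those of the formats Gabel21 and S022.

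Mean CT methylation was 0.378% ± 0.0335 in R749C and 0.405% ± 0.0385 in P904L (SD, n = 7 each), against 0.531% ± 0.0868 (n = 13) with the WT construct and 0.369% ± 0.0424 (n = 10) in knockout. R749C was lower than the WT construct by -0.153 points (SE 0.0272, interval -0.223 to -0.0799, exact permutation, adjusted p = 0.00236). P904L was lower by -0.125 points (SE 0.0281, interval -0.197 to -0.0514, adjusted p = 0.00676). The P904L call was again lost with medians (-0.140 points, adjusted p = 0.130, exact permutation), and both were lost when the lambda value of each library was subtracted (R749C -0.187 points with adjusted p = 0.174, P904L -0.208 points with adjusted p = 0.206). With the formats Gabel21 and S022 left out, again a choice made after the values had been seen, both differences from the WT construct passed. R749C was then lower by -0.194 points (adjusted p = 0.000463, exact permutation) and P904L by -0.152 points (adjusted p = 0.0012). R749C minus knockout was 0.00905 points over all libraries (SE 0.0184, interval -0.0320 to 0.0481, exact permutation, adjusted p = 0.651), and it was -0.00216 points without R749C replicate 1.

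P904L minus knockout in CT sat at the edge of the test. The difference was 0.0368 points (SE 0.0198, interval -0.00668 to 0.0782) and did not pass (exact permutation, adjusted p = 0.123). It passed without knockout replicate 10, whose 0.475% stood far above the other 9 knockout libraries at 0.328% to 0.386% (0.0487 points, adjusted p = 0.00839, exact permutation). It also passed with medians (0.0498 points, adjusted p = 0.0418) and with the CC value subtracted (0.0314 points, adjusted p = 0.0319). No other single library left out gave a pass. The difference did not pass within title formats (0.0253 points, adjusted p = 0.3825, exact permutation) or with libraries of the same title code averaged (adjusted p = 0.177). Nor did it with log2 values (adjusted p = 0.103, exact permutation), the title letter as strata (0.147), genotype label alone (0.124) or Gabel21 and S022 left out (0.120). Its sign turned with lambda subtracted (-0.0804 points).

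**Figure D2:**
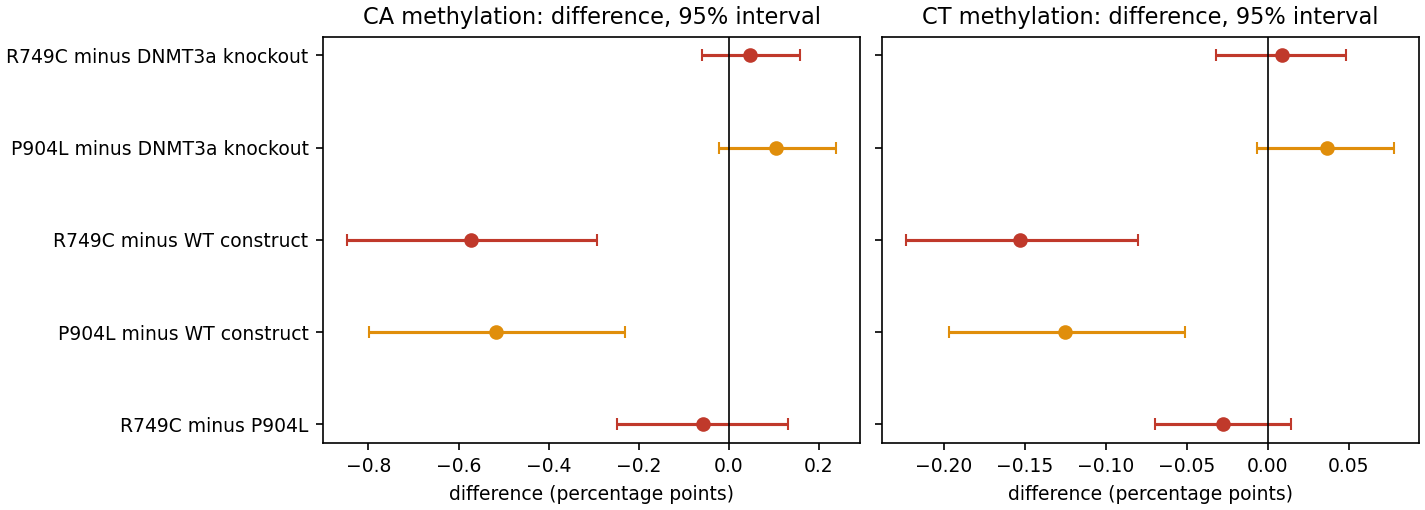
Differences in mean methylation at CA (left) and CT (right), in percentage points, for R749C and P904L against DNMT3a knockout and the WT construct and for R749C minus P904L; points are differences and bars are 95% intervals from inverting the permutation test. Intervals against the WT construct lie wholly below 0 and those against knockout cover 0.

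R749C and P904L were not told apart. R749C minus P904L was -0.0564 points at CA (SE 0.0868, interval -0.247 to 0.131, exact permutation, adjusted p = 0.545 over 15 further comparisons). At CT it was -0.0278 points (SE 0.0193, interval -0.0698 to 0.0141, adjusted p = 0.213, exact permutation). The intervals leave room for a P904L level above R749C by 0.247 points at CA, so equal activity is not shown. Expressed as a share of the gain from knockout to the WT construct, R749C reached 7.79% of it at CA and 5.59% at CT, and P904L 16.9% at CA and 22.7% at CT. These shares are descriptions with wide error, since the SD between libraries of 1 variant corresponds to 20.7% to 29.1% of the gain. Leaving out single libraries moved the R749C share between 1.74% and 11.3% at CA and between -1.33% and 12.0% at CT, the low ends being without R749C replicate 1. For P904L the range was 8.36% to 21.4% at CA, the low end being without P904L replicate 5, and 17.5% to 28.0% at CT.

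CA exceeded CT in all 7 libraries of each variant, as it did in all 13 WT construct and all 10 knockout libraries. The ratio of CA to CT followed the same order as the levels. A background shared by both contexts would lower this ratio most where levels are low, and none was subtracted. The order is therefore no separate support. The ratio averaged 1.43 ± 0.292 in R749C and 1.46 ± 0.318 in P904L (SD, n = 7 each), against 2.06 ± 0.340 with the WT construct (n = 13) and 1.35 ± 0.178 in knockout (n = 10). It was not tested. CA and CT also moved together among P904L libraries, with Pearson's r = 0.884 (exact permutation p = 0.00853, adjusted p = 0.0256 over 12 relations) and Spearman's rho = 0.929 (p = 0.00675, adjusted p = 0.0270). Without the 2 libraries farthest from the median CA, r was 0.963. CA and lambda among the same libraries gave r = 0.419 (exact permutation, adjusted p = 0.461) and rho = 0.679 (adjusted p = 0.197), and r = 0.912 without the 2 farthest. Title formats hold at most 3 of these libraries, too few for a value within a format. P904L libraries left a gap between 0.528% and 0.676% CA, and each r above spans it. The 3 WT construct libraries lowest at CA were also its 3 lowest at CT, so the shared rise is not particular to P904L. In R749C 2 libraries stood apart from the other 5, so no r over all 7 is given.

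**Figure D3:**
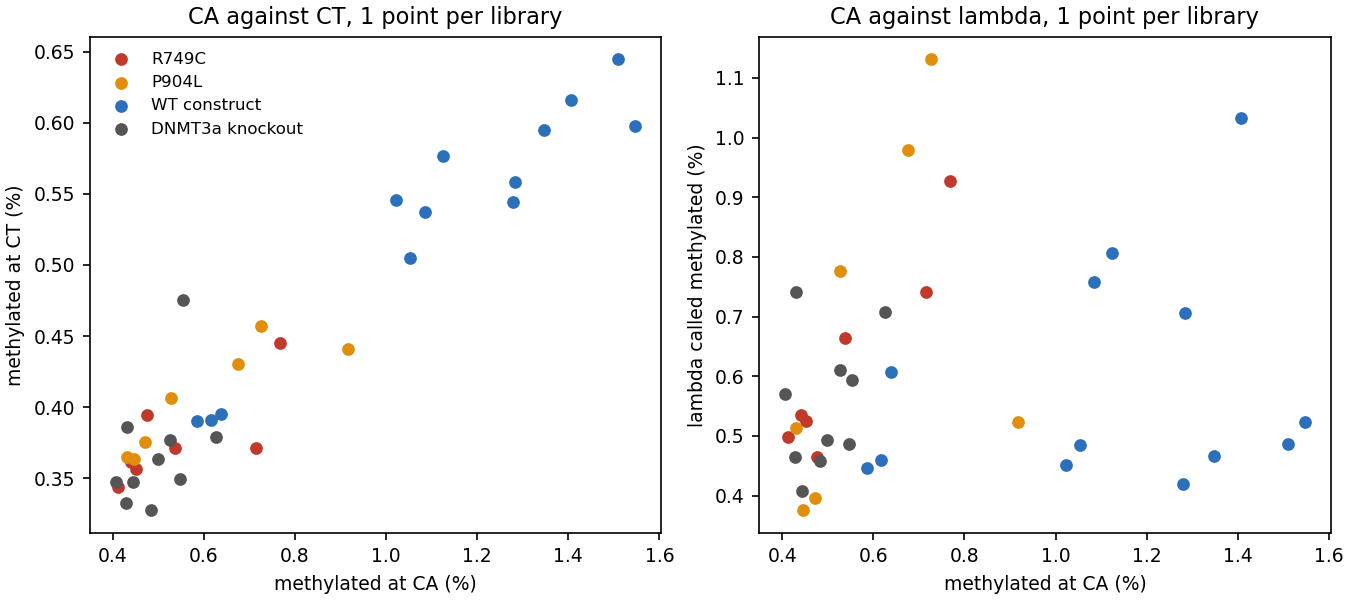
CT methylation (left) and the percentage of lambda cytosines called methylated (right) against CA methylation, all in percent, 1 point per library of R749C, P904L, the WT construct and DNMT3a knockout. P904L libraries rise together in CA and CT, and the 2 R749C libraries with the highest CA are also the 2 with the highest lambda.

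R749C libraries carry 3 codes in their titles, and their spread at CA followed the code. The 2 libraries of pYL7-11 held 0.716% and 0.768% CA, the 3 of pYL7-9 held 0.451% to 0.537% and the 2 of pYL7-14 held 0.412% and 0.441%, so the codes did not overlap. Code and title format cannot be fully told apart, since the 2 pYL7-14 libraries share a format that no other R749C library has. Lambda DNA is an unmethylated spike-in, and the share of its cytosines called methylated is meant to read out incomplete conversion. Lambda was high in the same libraries, with a mean of 0.834% in pYL7-11, 0.552% in pYL7-9 and 0.517% in pYL7-14. The 2 pYL7-11 libraries were the only R749C libraries above every knockout library at CA, and the part of lambda in their level was not tested. CC methylation, a context that DNMT3A barely uses, was 0.309% and 0.241% in these 2 libraries and 0.281% to 0.333% in the other 5.

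P904L libraries varied mostly within 1 code. Of them 5 carry pYL6-25, from 0.431% to 0.917% CA with a mean of 0.656%, and 1 library each carries pYL6-2 (0.472%) and pYL6-4 (0.447%). The last 2 are the libraries of the title formats S022 and Gabel21, so code and format cannot be told apart in them. A pair of the pYL6-25 libraries share the full code pYL6-25 9C and held 0.676% and 0.528%. The highest library, replicate 5, had 0.917% CA with 0.524% lambda and 0.281% CC, so in it CA lay 0.393 points above lambda. In replicates 2 and 3, at 0.726% and 0.676% CA, lambda was 1.13% and 0.978% and thus above CA. Lambda exceeded CA in 6 of 7 R749C and 4 of 7 P904L libraries, against 0 of 13 WT construct and 6 of 10 knockout libraries. It exceeded CC in every library of these 4 groups, and subtracting it therefore gave CC levels below 0. Whether lambda is comparable with genomic cytosines is thus unclear, and every result with lambda subtracted carries that limit.

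With lambda subtracted, the CA excess over knockout changed sign in both variants, to -0.0210 points in R749C and -0.0125 points in P904L. The difference from the WT construct kept its direction and passed in both at CA. With CC subtracted, CA was 0.252% ± 0.153 in R749C and 0.295% ± 0.182 in P904L (SD, n = 7 each), against 0.795% ± 0.327 with the WT construct (n = 13) and 0.196% ± 0.0751 in knockout (n = 10). The order of the 4 groups was thus the same as without the subtraction.

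CG, CC and lambda gave no call for either variant. CG methylation, which is placed mostly before neurons mature and is kept by another enzyme, was 73.8% ± 1.89 in R749C and 72.6% ± 2.42 in P904L (SD, n = 7 each), against 73.7% ± 2.52 with the WT construct and 71.9% ± 3.28 in knockout. The differences were 0.0882 points for R749C and -1.10 points for P904L against the WT construct, and 1.90 and 0.708 points against knockout (exact permutation, adjusted p = 0.981, 0.813, 0.813 and 0.814). The R749C libraries ranged from 70.0% to 75.8% and the P904L libraries from 69.1% to 75.1%. The 2 lowest P904L values, 69.1% and 70.2%, were the libraries of the formats S022 and Gabel21. The 3 WT construct libraries of those formats were also the lowest of theirs, at 69.0% to 70.5%. R749C has no library of these formats. Within formats R749C was below the WT construct in 4 of 4, by -3.02 to -0.481 points, and P904L in 3 of 5. As at CA, most of these formats hold few libraries of a group. Permuting within formats gave R749C -1.21 points, which did not pass (adjusted p = 0.346, exact permutation).

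CC methylation averaged 0.291% ± 0.0282 in R749C and 0.304% ± 0.0196 in P904L, against 0.320% ± 0.0288 with the WT construct and 0.299% ± 0.0394 in knockout. R749C lay -0.0287 points below the WT construct, which did not pass after adjustment (exact permutation p = 0.0462, adjusted p = 0.166). P904L lay -0.0157 points below it (adjusted p = 0.462, exact permutation). Lambda averaged 0.623% ± 0.166 in R749C and 0.671% ± 0.296 in P904L, against 0.588% ± 0.185 with the WT construct and 0.553% ± 0.111 in knockout, and no difference between a variant and these groups passed (exact permutation, adjusted p from 0.789 to 0.826). Of these 4 groups lambda varied most among P904L libraries, from 0.376% to 1.13%.

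**Figure D4:**
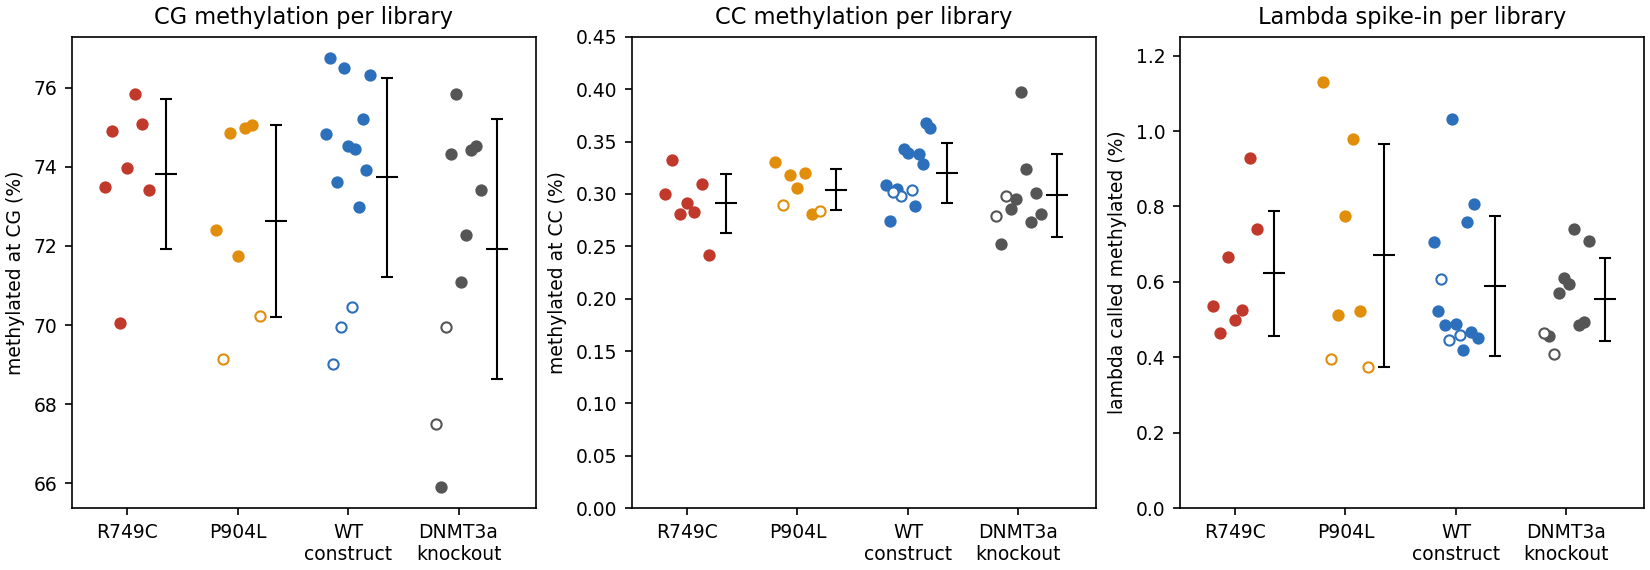
Percentage methylated at CG (left) and CC (middle) and percentage of lambda cytosines called methylated (right) in each library of the same 4 groups, with mean and SD; open points are libraries with the title formats Gabel21 or S022, and the CG axis starts above 0. The groups overlap in all 3 panels.

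R749C and P904L were also set beside the other 6 altered constructs and the cultures without virus, in 15 further comparisons per context. In the order of CA means they came after W297del (0.411%), M548K (0.440%), S312fs11x (0.470%) and knockout (0.495%), and before G532S (0.732%), V665L (0.8289%), no virus (0.859%), Y735C (0.941%) and the WT construct (1.12%). Neighbours in this order were not separated by the tests: R749C and P904L differed from S312fs11x by 0.0731 and 0.130 points (exact permutation, adjusted p = 0.419 and 0.273), and P904L from G532S by -0.132 points (adjusted p = 0.204). V665L, also a substitution in the catalytic domain, had an SD of 0.373 points, and neither R749C (-0.286 points, adjusted p = 0.133, exact permutation) nor P904L (-0.229 points, adjusted p = 0.224) passed against it. R749C did pass against V665L with lambda subtracted (-0.349 points, adjusted p = 0.00311, exact permutation) and without the formats Gabel21 and S022 (-0.466 points at CA, adjusted p = 0.0379, and -0.121 points at CT, adjusted p = 0.0476).

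R749C lay below Y735C, another catalytic-domain substitution, at CA (-0.398 points, adjusted p = 0.0270, exact permutation) and CT (-0.0925 points, adjusted p = 0.0379), with 5 of 7 R749C libraries below the lowest Y735C library in each context. It also lay below no virus at CA (-0.316 points, adjusted p = 0.0270, exact permutation) and CT (-0.0834 points, adjusted p = 0.0379). Both CA calls were lost without any 1 of R749C replicates 3 to 7 (adjusted p = 0.0551, exact permutation), and the CT calls with CC subtracted (adjusted p = 0.0872 against Y735C and 0.118 against no virus). At CT the Y735C call was also lost without any 1 of R749C replicates 2 to 7 (adjusted p up to 0.0754, exact permutation), and the no virus call without R749C replicate 2, 3, 5 or 7 (0.0505). Medians (adjusted p = 0.104 and 0.0962, exact permutation) and permuting within title formats (0.0625 and 0.05, not under the threshold) also ended these CT calls against Y735C and no virus. P904L did not pass at CA against Y735C (-0.342 points, adjusted p = 0.0551, exact permutation) or no virus (-0.260 points, adjusted p = 0.0731), though both passed without P904L replicate 5 (adjusted p = 0.0211 each), the first also without Y735C replicate 1, 7 or 11 and the second without no virus replicate 1 or 10. The Y735C difference also passed with lambda subtracted (adjusted p = 0.00293, exact permutation), CC subtracted (0.0441), medians (0.0318), log2 values (0.01995), within title formats (0.0286) and grouping by genotype label alone (0.0476). The no virus difference passed with lambda subtracted (adjusted p = 0.00293, exact permutation), medians (0.0318) and grouping by genotype label alone (0.0476). A difference between R749C and P904L in these comparisons is therefore not shown, since the direct comparison of the 2 variants did not pass.

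At CT, P904L lay above M548K (0.0572 points, adjusted p = 0.0379, exact permutation), with all 7 P904L libraries above the highest M548K library, and above W297del (0.0670 points, adjusted p = 0.0379). The M548K call passed with each library left out in turn (adjusted p from 0.0224 to 0.0426, exact permutation), whereas the W297del call was lost in 9 of 12 such fits, those without P904L replicate 2, 3, 4, 5 or 7 or W297del replicate 1, 2, 3 or 5. Both were lost with CC subtracted (adjusted p = 0.159 against M548K and 0.131 against W297del, exact permutation), within title formats (0.0765 each) and with medians (0.0962 each). The W297del call was also lost with libraries of the same title code averaged (adjusted p = 0.0649, exact permutation). At CA the same 2 comparisons did not pass (0.160 points over M548K with adjusted p = 0.104 and 0.189 points over W297del with adjusted p = 0.0915, exact permutation).

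**Figure D5:**
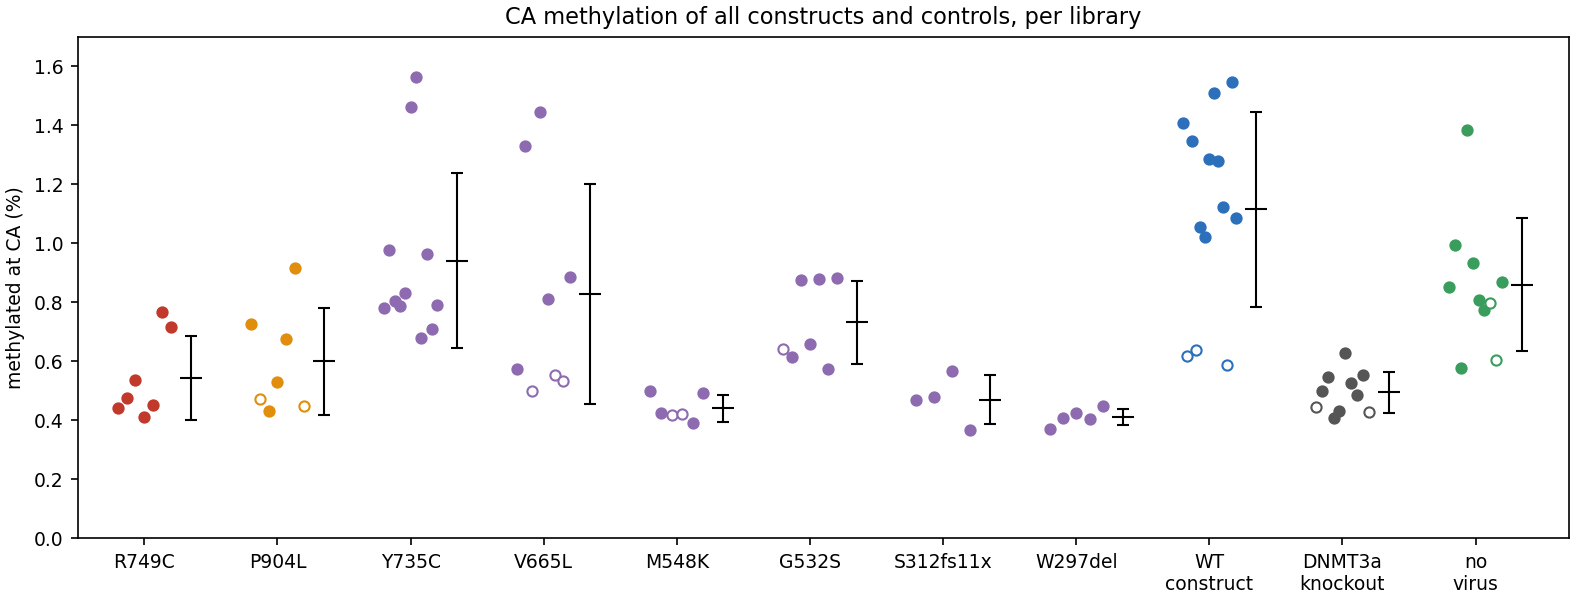
CA methylation in percent in each library of the 8 altered constructs, the WT construct, DNMT3a knockout and no virus, with mean and SD; open points are libraries with the title formats Gabel21 or S022. The means of R749C and P904L lie between those of the low set (M548K, S312fs11x, W297del, knockout) and that of Y735C. Their libraries, from 0.412% to 0.768% in R749C and from 0.431% to 0.917% in P904L, overlap both sides.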

How the data were processed

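Low-coverage whole-genome bisulfite libraries were analysed from the authors' deposited table, which holds for each library the fraction of methylated cytosines at CA, CT, CC and CG sites and in the lambda spike-in. Per the submitters' processing notes, BS-Seeker2, bedtools and the mm9 genome were used; versions, filters and whether lambda was subtracted are not given in the sources used here. Fractions were expressed as percent and used uncorrected. The table gives no counts, so depth is unknown and libraries were weighted equally; a shallow library may therefore carry more error than its weight shows. A second table, of deep cortex libraries, was not used.

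Groups came from titles and genotype labels. Differences in means were tested by two-sided permutation, exact where a group had fewer than 10 libraries and otherwise with 100000 resamples (seed 1). Intervals at 95% were found by inverting the test. Benjamini-Hochberg adjustment was made per context over 18 comparisons (8 altered constructs against knockout and the WT construct, WT construct against knockout, knockout against no virus) and over 15 further ones. Calculations ran in Python 3.11.15 (scipy 1.17.1, numpy 2.4.6, matplotlib 3.10.9, pandas 2.3.3). The test was checked on simulated normal data with the sizes of the R749C and knockout groups and the same SD in both. Groups of unequal SD, as found here, were not simulated. Variants, comparisons and alternatives were chosen with earlier results of these data known. Alternatives were lambda or CC subtracted, medians, log2, libraries of the same title code averaged, title format or title letter as strata, grouping by genotype label alone, and each library left out. Whether a title code marks a culture is not stated.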

Additional observations from a re-analysis of the deposited data

Results flagged for a closer look

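Among 15 group and context combinations of R749C, P904L and knockout tested for a single library far from the rest, 3 were picked out, and chance picks about 1 in 20. The lowest CG value among R749C libraries was 70.0% in replicate 3, against 73.4% to 75.8% in the other 6; that library had 0.537% CA and 0.665% lambda. The highest CT value among knockout libraries was 0.475% and the highest CC value 0.397%, both in replicate 10, which had 0.554% CA and 0.594% lambda. This knockout library bears on P904L, whose CT excess over knockout passed without it, as given above.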

How the results depend on the processing

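Over 1441 recomputed values, 51 turned sign, 52 lost and 27 gained a call, and 1311 did none of these. The values include the shares of the WT gain, which have no threshold and counted as kept when they moved by less than the SD between libraries. Of the 1311, 906 came from leaving out single libraries, while 23 of the 51 turned signs came with lambda subtracted. R749C and P904L stayed below the WT construct at CA and CT in direction under every alternative run, and lost calls only as named here.

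With lambda subtracted, sign turned at CA for R749C (-0.0210 points) and P904L (-0.0125) minus knockout, for R749C minus W297del (-0.0483), S312fs11x (-0.0322) and M548K (-0.0580), and for P904L minus these (-0.0399, -0.0238 and -0.0495). At CT it turned for R749C (-0.0603) and P904L (-0.0804) minus knockout, R749C minus P904L (0.0202), R749C minus W297del (-0.142), S312fs11x (-0.0795) and M548K (-0.132), and P904L minus these (-0.162, -0.0997 and -0.152). It turned at CC for P904L minus knockout (-0.112) and R749C minus P904L (0.0350). The shares of the WT gain became -3.58% (R749C) and -2.14% (P904L) at CA and -47.4% and -63.3% at CT. At CT the WT construct calls were lost for R749C (-0.187 points) and P904L (-0.208). Calls gained at CA were R749C minus G532S (-0.269 points) and V665L (-0.349), and P904L minus Y735C (-0.497) and no virus (-0.408). With CC subtracted, P904L minus knockout passed at CT (0.0314 points).

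With medians, sign turned for R749C minus knockout at CA (-0.0158 points; share of the WT gain -2.49%) and CC (0.000889), P904L minus knockout at CG (-0.439) and lambda (-0.00772), R749C minus the WT construct at CG (-0.492) and R749C minus P904L at lambda (0.0120). P904L minus the WT construct lost its call at CA (-0.596) and CT (-0.140), and P904L minus knockout gained one at CT (0.0498). Within title formats, sign turned for R749C minus knockout at CT (-0.00498), P904L minus knockout at CC (-0.00666) and R749C minus the WT construct at CG (-1.21) and lambda (-0.0318). Without the formats Gabel21 and S022, R749C minus the WT construct turned at CG (-1.09).

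With the title letter as replicate block, the WT construct calls at CA held for R749C (-0.572 points, exact permutation, adjusted p = 0.00612) and P904L (-0.454, adjusted p = 0.0233), and P904L minus knockout was 0.155 (adjusted p = 0.0796). R749C lost its CA calls against Y735C and no virus there (adjusted p = 0.0804 each, exact permutation) and its CT calls against them (0.0567 and 0.0536), and P904L its CT calls against M548K (0.0556) and W297del (0.385). Sign turned for P904L minus no virus at CA (0.0371) and CT (0.00616) and R749C minus knockout at CC (0.00470). What the letter marks is not stated, so this pairing is by label only. Grouping by genotype label alone, log2 values and averaged codes changed no call against knockout or the WT construct.

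Leaving out single libraries gave -0.306 to 0.717 points for R749C minus the WT construct at CG and -0.0163 to 0.0715 at lambda. R749C minus knockout ranged from -0.00216 to 0.0209 at CT (share -1.33% to 12.0%) and -0.0144 to 0.00346 at CC. P904L minus knockout ranged from 0.0283 to 0.0487 at CT, and R749C minus P904L from -0.0987 to 0.0288 at lambda. The cause of these changes was not tested.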
